A study of Rattus norvegicus with 6 samples.

Results

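The contractile genes of smooth muscle and myofibroblasts were followed in rat lung through 10 gene names, Acta2, Actg2, Tagln, Myh11, Cnn1, Des, Myl9, Lmod1, Myocd and Smtn. They were taken by name from the deposited transcript table, where they made up 10 of the 21210 gene names with an annotated transcript and 29 of the 70376 transcripts. The samples were lungs of 3 control and 3 pulmonary fibrosis (PF) model Sprague-Dawley rats. Rats, 7 weeks old at the start, received a single dose into the trachea, which was bleomycin at 7 mg/kg in the model group and an equal volume of saline in the control group, and lungs were taken on day 28. One library depleted of ribosomal RNA was made per rat, named Control 1 to 3 and Model 1 to 3 here. Values are FPKM, the level per transcript that the authors estimated and scaled for transcript length and library size, and the FPKM of a gene is the sum over its transcripts.

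Smooth muscle cells contract when myosin filaments pull on actin filaments, and both filaments are built from isoforms largely restricted to these cells. Airway and vessel walls hold most of the smooth muscle of the lung. In fibrotic lung, fibroblasts can become myofibroblasts, which build stress fibres containing smooth muscle actin, the product of Acta2. Myocardin, the product of Myocd, acts with serum response factor on CArG boxes, short A/T-rich elements in the control regions of many contractile genes.

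No contractile gene passed the test between PF model and control lungs (limma, unadjusted p of at most 0.05). The groups of Myocd did not overlap, as for 10.7% of all genes tested, but those of its annotated transcripts alone did. Of the 10 genes, 6 were on average higher and 4 lower in the model group, with differences between -0.15 for Tagln and 0.31 for Myl9 on the log2(FPKM + 1) scale. The median difference was 0.03, against -0.0064 over all 19203 genes tested with limma. None of the 10 had an unadjusted p of at most 0.05, which 4.90% of all genes tested had. The unadjusted p lay between 0.102 and 0.971 and the Benjamini-Hochberg adjusted p between 0.934 and 0.9999 (limma). For 9 of the 10 genes, the 95% interval of the difference lay between -1 and 1 on this scale, and that of Tagln ran from -1.37 to 1.06. In bulk lung RNA, fewer cells of a type and less RNA per cell cannot be told apart.

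The libraries held between 3.58e+07 and 4.11e+07 estimated reads in transcripts. Lung markers were high in all 6 libraries, with Sftpc, surfactant protein C of alveolar type II cells, between 2410 and 4146 FPKM. Model 3 stood apart from the other libraries in markers of other tissues, as given below beside the genes concerned. In the whole table, 2 of 19203 genes (0.0104%) passed an adjusted p below 0.05, and 293 (1.53%) had an unadjusted p of at most 0.05 together with a log2 ratio of group means of at least 1 in size. These cut-offs follow the study, which does not say whether its p is adjusted, and are called the p and ratio thresholds below.

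**Figure D1:**
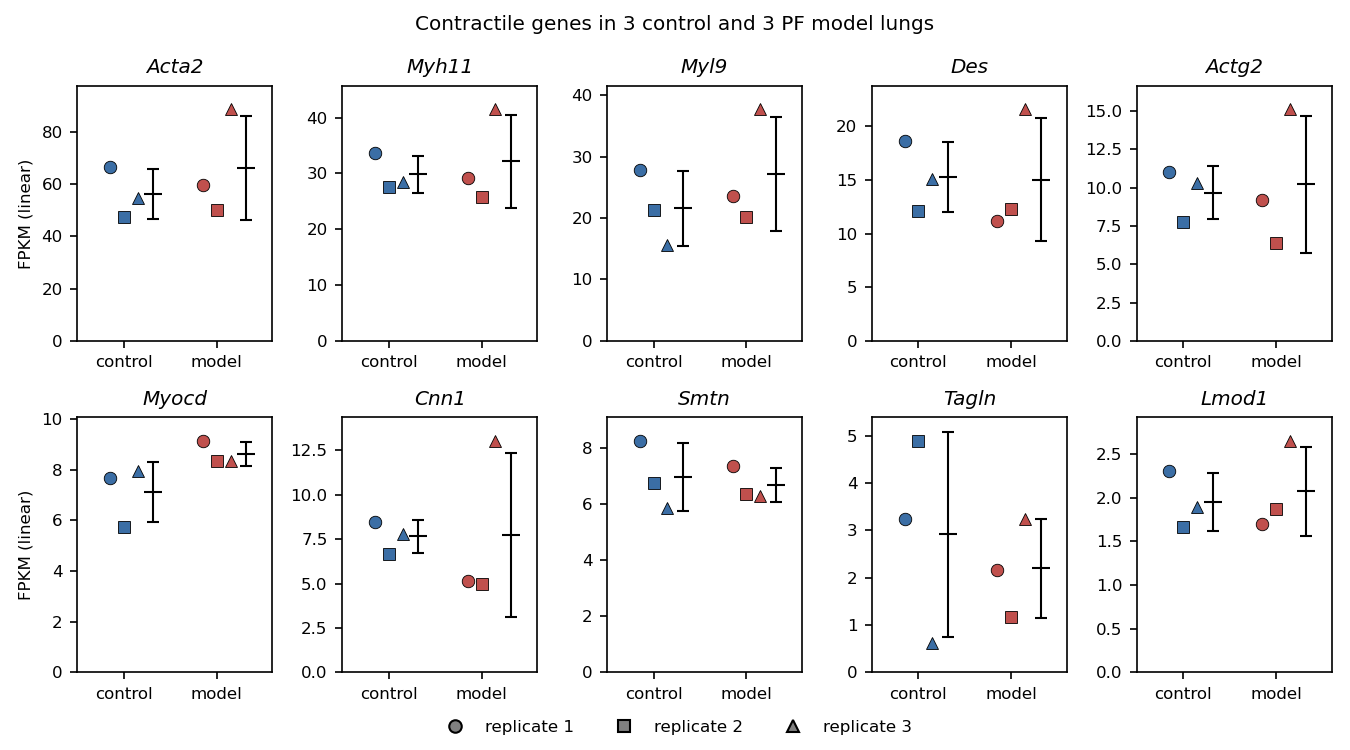
FPKM of the 10 contractile genes (linear axis from 0) in 3 control (blue) and 3 PF model (red) lungs, with one symbol per replicate number and the group mean with its SD (bars) beside them. In 7 of the 10 panels the highest point is Model 3, and only for Myocd do the groups not overlap, as for 10.7% of all genes tested.

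Acta2 was the most abundant member per length, with a mean of 61.1 FPKM, followed by Myh11 at 31.0, Myl9 at 24.4 and Des at 15.1 FPKM. Actg2 had a mean of 9.96, Myocd of 7.86, Cnn1 of 7.69, Smtn of 6.81, Tagln of 2.56 and Lmod1 of 2.01 FPKM. Acta2 was above Myh11 in every library, and the ranges of these neighbours did not overlap. The same held for Smtn above Tagln. All other neighbours in this order overlapped in range, although Myh11 exceeded Myl9, Myl9 exceeded Des and Des exceeded Actg2 within each of the 6 libraries. Myocd and Cnn1 changed places in 3 of the 6 libraries, as did Cnn1 and Smtn, so their order was not resolved. Of the Myocd sum, 81.9% lay in assembled pieces in its introns or just beyond its end. Its annotated transcripts alone averaged 1.33 FPKM in control and 1.52 FPKM in model lungs, below Lmod1 in both groups. The place of Tagln rests on what was listed under its own name. Transcripts named for the neighbouring gene Sidt2 run across it and held between 10.6 and 17.7 FPKM.

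The thin filament of smooth muscle is built from 2 actins of this set, Acta2 (vascular) and Actg2 (enteric). Acta2 (chromosome 1, 252537615 to 252550394, minus strand, 9 exons) had 66.3, 47.3 and 54.4 FPKM in Control 1, 2 and 3 and 59.7, 50.1 and 88.5 FPKM in Model 1, 2 and 3. Model 3 was the highest library and Control 1 the next, and Model 1 and Model 2 lay inside the control range. The group means were 56.0 ± 9.61 FPKM in control and 66.1 ± 19.99 FPKM in model lungs (SD, n = 3 each), a difference of 0.21 (SE 0.23, 95% interval -0.34 to 0.75) on the log2(FPKM + 1) scale. This difference did not pass the test (limma, unadjusted p = 0.391). Actg2 had 11.02, 7.74 and 10.3 FPKM in the controls and 9.20, 6.37 and 15.1 FPKM in Model 1 to 3. Its groups overlapped with Model 2 lowest and Model 3 highest, and the log2 difference was 0.01 (95% interval -0.69 to 0.71). The smooth muscle actin proteins are nearly identical to those of Acta1 and Actc1, the actins of skeletal and cardiac muscle. How reads shared by several genes were assigned is not given in the sources used here. Acta1 did not exceed 0.415 FPKM in any library. Actc1 had 9.78, 5.18 and 7.44 FPKM in control and 5.32, 5.23 and 13.8 FPKM in model lungs, with Model 3 highest and Control 1 next as for Acta2 and Actg2.

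Myosin of smooth muscle consists of the heavy chain Myh11 and light chains such as Myl9, whose phosphorylation starts contraction. Myh11 (chromosome 10, 764421 to 859184, plus strand) had 33.6, 27.5 and 28.5 FPKM in Control 1 to 3 and 29.2, 25.7 and 41.5 FPKM in Model 1 to 3. The groups overlapped, Model 3 was highest, and the log2 difference was 0.08 (SE 0.18, 95% interval -0.36 to 0.52). Between 7166 and 11865 estimated reads per library lay behind these values, the most of any member. Myl9 (chromosome 3, 152857592 to 152863960, plus strand) was at 27.9, 21.3 and 15.6 FPKM in the controls and 23.7, 20.2 and 37.7 FPKM in the model lungs. It had the largest positive difference of the 10 genes, 0.31 (95% interval -0.37 to 0.98), with Control 3 lowest, Model 3 highest and the other model lungs within the control range.

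Calponin, encoded by Cnn1, binds actin and restrains myosin. Cnn1 (chromosome 8, 23113048 to 23121761, plus strand) had 8.49, 6.67 and 7.80 FPKM in Control 1 to 3 and 5.16, 4.97 and 13.0 FPKM in Model 1 to 3. Model 1 and Model 2 lay below every control and Model 3 above every control, so that the group means of 7.65 ± 0.918 and 7.72 ± 4.60 FPKM (SD, n = 3 each) were nearly equal. The log2 difference was -0.10 (95% interval -0.91 to 0.70). Smtn, which encodes smoothelin of fully contractile smooth muscle, had 8.25, 6.73 and 5.87 FPKM in control and 7.37, 6.37 and 6.29 FPKM in model lungs. All 3 model values lay within the control range, and the difference was -0.04 (95% interval -0.38 to 0.29). Lmod1, a leiomodin that nucleates actin filaments, had 2.31, 1.66 and 1.89 FPKM in control and 1.69, 1.87 and 2.65 FPKM in model lungs. Its groups overlapped, with a log2 difference of 0.05 (95% interval -0.35 to 0.45).

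Desmin, the intermediate filament protein that ties contractile units together, is encoded by Des (chromosome 9, 82556573 to 82564294, plus strand). Des had 18.6, 12.1 and 15.1 FPKM in Control 1 to 3 and 11.2, 12.3 and 21.6 FPKM in Model 1 to 3. Model 3 and Control 1 were again the highest libraries, Model 1 was the lowest, and the difference was -0.06 (95% interval -0.70 to 0.58). Tagln encodes transgelin, or SM22, an actin-binding protein. It had 3.25, 4.89 and 0.612 FPKM in control and 2.17, 1.17 and 3.25 FPKM in model lungs. The controls alone spanned the lowest and the highest value of all libraries, with only 31.4 to 218 estimated reads behind each value, and the difference was -0.15 (95% interval -1.37 to 1.06).

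**Figure D2:**
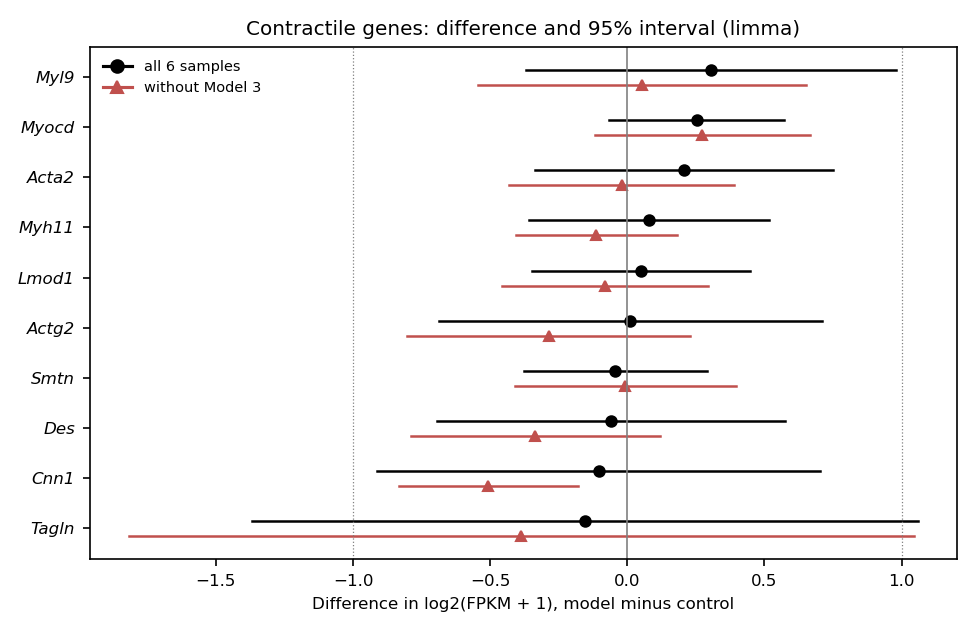
Difference between PF model and control in log2(FPKM + 1) for each contractile gene, with its 95% interval from limma, for all 6 samples (black circles) and without Model 3 (red triangles); dotted lines mark -1 and 1. With all samples every interval holds 0, and without Model 3 only that of Cnn1 does not. Model 3 was the highest library for 7 of these genes, so leaving it out was bound to lower their model means.

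Myocd was the one member whose groups did not overlap, which 10.7% of all genes tested did. It had 7.68, 5.75 and 7.93 FPKM in Control 1 to 3 and 9.14, 8.35 and 8.33 FPKM in Model 1 to 3. Every model lung lay above every control, with a log2 difference of 0.25 (SE 0.13, 95% interval -0.07 to 0.57), but this did not pass the test (limma, unadjusted p = 0.102, adjusted p = 0.934). Most of this sum lay outside the annotated transcripts. Of the summed FPKM of Myocd, 81.9% belonged to 5 assembled pieces of a single exon each, which lie in its introns or just beyond its end. The 4 intronic pieces, MSTRG.5538.1, MSTRG.5539.1, MSTRG.5540.1 and MSTRG.5541.1, each lay between 0.276 and 2.17 FPKM in every library. Only 3.53 to 76.7 estimated reads per library lay behind each of them. The annotated transcripts alone had 1.59, 1.096 and 1.31 FPKM in control and 1.02, 1.67 and 1.88 FPKM in model lungs, so that the groups overlapped. Without such pieces, an alternative chosen after the values were seen, the difference was 0.10 (95% interval -0.30 to 0.50, limma, unadjusted p = 0.559). With the sum weighted by transcript length, the difference of Myocd was 0.03 (limma, unadjusted p = 0.727).

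Model 3 had the highest value of all libraries in 7 of the 10 contractile genes, while it was highest in 25.4% of the 13896 genes with a mean FPKM of at least 1. The exceptions were Tagln, Myocd and Smtn. Relative to the mean of the other 5 libraries, Model 3 was 1.97 times as high for Cnn1, 1.74 times for Myl9, 1.69 times for Actg2, 1.59 times for Acta2 and 1.56 times for Des. The ratio was 1.44 for Myh11, 1.41 for Lmod1 and 1.34 for Tagln, and 1.07 for Myocd and 0.909 for Smtn. The 10 genes summed to 187, 142 and 148 FPKM in Control 1 to 3 and to 158, 137 and 238 FPKM in Model 1 to 3, so Control 1 was second and the other 4 libraries lay between 137 and 158 FPKM. Of 24 other smooth muscle genes, 7 were highest in Model 3, and they summed to 992 FPKM there and to 1004 FPKM in Control 1. Of 18 paralogs and general cytoskeletal genes found, 11 were highest in Model 3, as were 9 of 18 genes of activated fibroblasts.

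Markers of cardiac muscle moved with Model 3 as well. The 11 cardiac marker genes found summed to between 2.48 and 3.34 FPKM in control lungs and to 1.94, 2.72 and 21.0 FPKM in Model 1, 2 and 3, and 10 of the 11 were highest in Model 3. Myh6, the atrial and rodent heart myosin heavy chain, was listed at 0 in the controls and in Model 1 and had 0.0339 FPKM in Model 2 and 5.11 FPKM in Model 3. Tnnt2, cardiac troponin T, had 4.65 FPKM in Model 3 and at most 0.708 FPKM elsewhere. Of 7 genes of conducting airways, 5 were highest in Model 3, and their list summed to between 4633 and 7939 FPKM in control lungs and to 4179, 4823 and 6441 FPKM in Model 1, 2 and 3. Muc5b, an airway mucin, had 22.2 FPKM in Model 3 and at most 3.68 FPKM elsewhere, and Scgb3a1, a secretoglobin of large airways, had 47.0 FPKM in Model 3 and at most 6.45 FPKM elsewhere. Scgb1a1, the club cell secretoglobin, was at 6140 FPKM in Model 3, within the control range of 4514 to 7693 FPKM, and Scgb3a2, another secretoglobin, was at 191 FPKM, within the control range of 98.4 to 214 FPKM. The part of cardiac or airway tissue in the levels of the contractile genes was not tested.

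**Figure D3:**
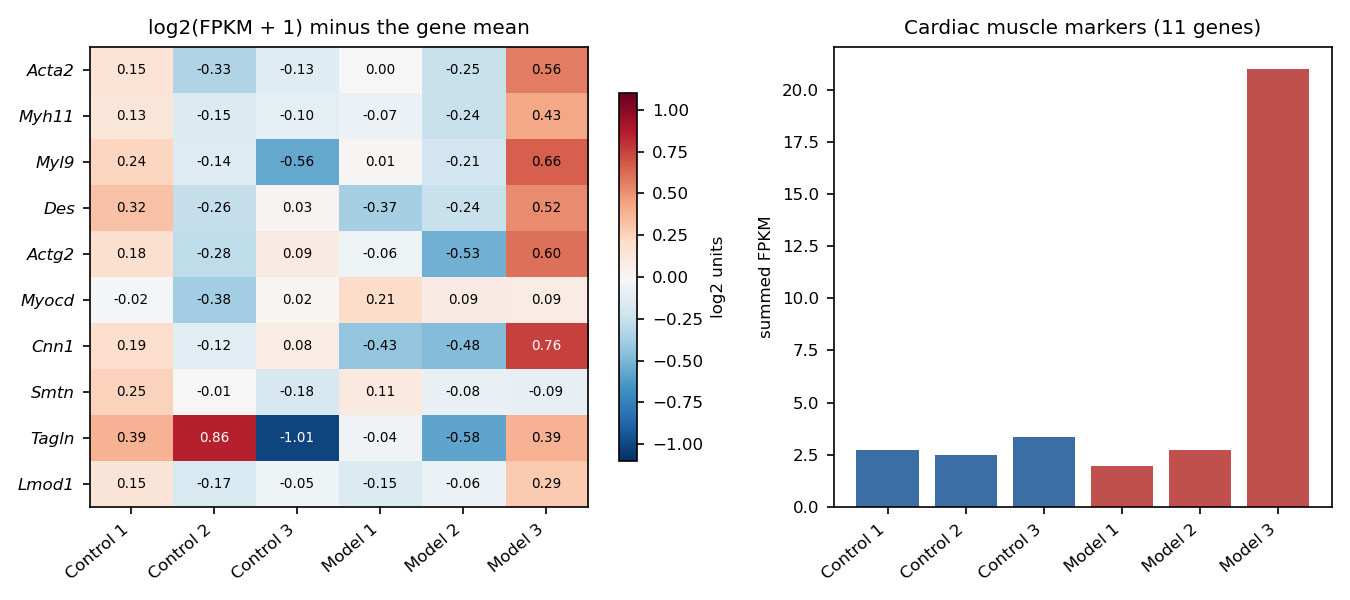
Left, log2(FPKM + 1) of each contractile gene minus its mean over the 6 libraries, with the value in each cell (red above, blue below the mean). Right, summed FPKM of 11 cardiac muscle marker genes per library (linear axis from 0), which is 21.0 in Model 3 and at most 3.34 in the others.

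Model 3 was highest in 7 of the 10 contractile genes, so leaving it out was bound to lower their model means. Without Model 3, 8 of the 10 contractile genes were on average lower in the model group and 2, Myl9 and Myocd, were higher. The median difference was then -0.10, against -0.01 over all genes tested. Cnn1 was lower in both remaining model lungs than in every control, as were 11.3% of all genes tested. Its means were 5.06 FPKM in 2 model lungs and 7.65 FPKM in 3 controls, a log2 difference of -0.51 (95% interval -0.83 to -0.18). Cnn1 thereby reached an unadjusted p of 0.00966 (limma), as 4.34% of all genes reached an unadjusted p of at most 0.05, but not the adjusted threshold (adjusted p = 0.986). Myocd was higher in both remaining model lungs than in every control, as were 8.63% of all genes tested. The differences of Acta2 (-0.02), Actg2 (-0.29), Myh11 (-0.11) and Lmod1 (-0.08) changed sign without Model 3, and none of these 4 passed the test in either case. Des was at -0.34 and Tagln at -0.39. Leaving out Model 2 instead moved Cnn1 to 0.11 (limma, unadjusted p = 0.768), Des to 0.05 and Tagln to 0.10. Only Smtn was then negative (-0.02).

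The windows of 250 bases before the annotated start were read from a table of RefSeq promoters (assembly GRCr8), in which 5 of the 10 genes were matched by name, namely Acta2, Actg2, Cnn1, Des and Smtn. Promoters of Myh11, Tagln, Myl9, Lmod1 and Myocd were not used here. Shown are those of Acta2, the member with the highest level, of Cnn1 and Des, which like Acta2 were highest in Model 3, and of Smtn, which was not. They lie at chr1:241172504-241172753 (minus strand), chr8:28908187-28908436 (plus strand), chr9:84299376-84299625 (plus strand) and chr14:82644515-82644764 (minus strand), are written 5′ to 3′ along the gene, and end at the base before the start. Capitals mark matches to the CArG box with up to 1 G or C among its inner 6 bases, searched on both strands.
Acta2: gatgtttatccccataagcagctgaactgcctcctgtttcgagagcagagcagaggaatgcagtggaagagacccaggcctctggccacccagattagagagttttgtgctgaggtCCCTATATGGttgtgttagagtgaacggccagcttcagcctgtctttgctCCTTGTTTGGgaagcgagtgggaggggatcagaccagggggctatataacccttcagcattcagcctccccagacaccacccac
Cnn1: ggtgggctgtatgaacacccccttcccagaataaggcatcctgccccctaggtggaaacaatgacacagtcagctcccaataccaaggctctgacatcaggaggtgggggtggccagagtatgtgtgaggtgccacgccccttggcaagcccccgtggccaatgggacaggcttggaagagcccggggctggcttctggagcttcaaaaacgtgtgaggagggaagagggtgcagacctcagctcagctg
Des: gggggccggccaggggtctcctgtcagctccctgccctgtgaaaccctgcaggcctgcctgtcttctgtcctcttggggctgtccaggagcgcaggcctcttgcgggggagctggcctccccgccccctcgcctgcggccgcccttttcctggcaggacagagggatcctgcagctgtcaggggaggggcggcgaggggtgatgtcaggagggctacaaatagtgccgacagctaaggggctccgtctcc
Smtn: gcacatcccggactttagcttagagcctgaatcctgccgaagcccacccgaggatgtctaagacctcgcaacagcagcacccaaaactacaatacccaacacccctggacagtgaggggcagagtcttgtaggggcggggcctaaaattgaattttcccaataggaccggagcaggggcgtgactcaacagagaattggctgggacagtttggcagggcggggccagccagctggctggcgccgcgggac
The Acta2 window held 2 such matches, CCCTATATGG from 134 to 125 bases and CCTTGTTTGG from 84 to 75 bases before the start. None of the other 4 windows, that of Actg2 included, held one. A match of this kind occurred in 8.08% of all 33469 promoter windows of the same length. The CArG box without exception occurred in 1.497% of all windows and in 0 of the 5 read here. These letters describe the windows and were not tied to any measured binding.

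Among the 29 transcripts of the 10 genes, 28 were tested and 1 had an unadjusted p of at most 0.05, against 4.53% of all 64867 transcripts tested. It was MSTRG.5536.1, a piece of 732 bases beyond the end of Myocd (chromosome 10, 51682746 to 51683477, minus strand). It had 1.33, 1.29 and 1.48 FPKM in Control 1 to 3 and 2.21, 2.07 and 2.20 FPKM in Model 1 to 3. The groups did not overlap, as for 10.4% of all transcripts, and the difference of 0.42 (95% interval 0.10 to 0.74) had an unadjusted p of 0.0189 and an adjusted p of 0.945 (limma). Leaving out Control 1, Control 2 or Model 1 moved its unadjusted p to 0.0524, 0.0563 and 0.0592. The p and ratio thresholds were passed by 0 of the 28, against 2.98% of all transcripts.

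Reads of Myocd were split between the 2 annotated transcripts in a way that differed between libraries. ENSRNOT00000057562, with 13 exons, had 1.27, 0.825 and 0 FPKM in Control 1 to 3 and 0, 0.538 and 0.395 FPKM in Model 1 to 3. ENSRNOT00000078675, with 14 exons, had 0.313, 0.271 and 1.31 FPKM in control and 1.02, 1.13 and 1.48 FPKM in model lungs. Control 3 was thus unlike the other controls in both. Leaving it out was therefore bound to widen the differences. With all samples, these were -0.32 and 0.49 (limma, unadjusted p = 0.392 and 0.122). Without Control 3, the first was lower (log2 difference -0.66, limma, unadjusted p = 0.0412) and the second higher (0.77, limma, unadjusted p = 0.00532) in the model group. The adjusted p were 0.999995 and 0.721. Both then passed the p and ratio thresholds, as did 3.31% of all transcripts tested without Control 3. Neither passed them when any other library was left out.

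Myh11 was divided among 9 transcripts, 7 on its own strand and 2 single-exon pieces on the opposite strand inside its introns, which held 15.6% of the summed FPKM. The 7 isoforms on its strand summed to 28.5, 23.5 and 23.0 FPKM in Control 1 to 3 and to 24.3, 21.1 and 36.6 FPKM in Model 1 to 3. As for the whole gene, Model 3 was highest, Control 1 next and Model 2 lowest. The main assembled isoform, MSTRG.4613.7, held 46.5% of the gene and had 7.70, 16.4 and 11.6 FPKM in control and 17.0, 5.98 and 27.7 FPKM in model lungs. MSTRG.4613.3 had 15.9 FPKM in Control 1 and at most 1.48 FPKM in any other library. The other 5 isoforms, ENSRNOT00000087567, ENSRNOT00000084608, MSTRG.4613.2, MSTRG.4613.4 and MSTRG.4613.5, did not exceed 5.13 FPKM in any library. Isoforms of one gene share most of their exons, and MSTRG.4613.7 had an SD of 4.37 FPKM in control and 10.9 FPKM in model lungs, against 3.04 and 8.20 FPKM for the sum (n = 3 each).

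The opposite-strand pieces of Myh11, MSTRG.4614.1 and MSTRG.4615.1, were steady, at 5.16, 4.01 and 5.52 FPKM in control and 4.88, 4.65 and 4.89 FPKM in model lungs. Myl9 had an annotated transcript with 17.6, 14.8 and 15.6 FPKM in control and 17.7, 13.3 and 28.4 FPKM in model lungs. Its other isoform, MSTRG.24376.1, had 0.0122 FPKM in Control 3 and between 5.95 and 10.3 FPKM in the other 5 libraries. As listed, the low Myl9 sum of Control 3 lay in this isoform, and for the annotated one Control 3 lay between Control 1 and Control 2. Lmod1 was carried by the assembled isoform MSTRG.9915.1, which held 96.3% of its FPKM. In Actg2, a piece of 233 bases beyond its end (MSTRG.26100.1) had 0.790, 0.576 and 1.90 FPKM in control and 1.34, 0.273 and 0 FPKM in model lungs. At most 21.7 estimated reads per library lay behind it, and with all samples its difference was -0.49 (limma, unadjusted p = 0.263). Model 1 was its highest model lung, so leaving that library out was bound to widen the difference. Without Model 1 this piece passed the p and ratio thresholds (-0.84, limma, unadjusted p = 0.0462, adjusted p = 0.951), as did 3.43% of all transcripts tested then.

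Tagln lies on chromosome 8 from 50222896 to 50231357 (minus strand), and 2 assembled transcripts of 30 exons named for the neighbouring gene Sidt2 run across it. MSTRG.34659.1 covers its whole length, and MSTRG.34659.3 covers it from base 50223089 on. These had a summed 13.0, 13.4 and 17.7 FPKM in Control 1 to 3 and 10.6, 15.7 and 13.1 FPKM in Model 1 to 3, more than was listed under Tagln in every library. Where Tagln was lowest, in Control 3 and Model 2, the spanning transcripts were highest. Tagln and the spanning transcripts together had 16.2, 18.3 and 18.3 FPKM in control and 12.8, 16.8 and 16.4 FPKM in model lungs. The sum was 17.6 ± 1.19 FPKM in control and 15.3 ± 2.24 FPKM in model lungs (SD, n = 3 each), against 2.92 ± 2.16 and 2.20 ± 1.04 FPKM for Tagln alone. Reads of Tagln and of Sidt2 cannot be told apart where these transcripts overlap, and the level of Tagln is uncertain for that reason.

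**Figure D4:**
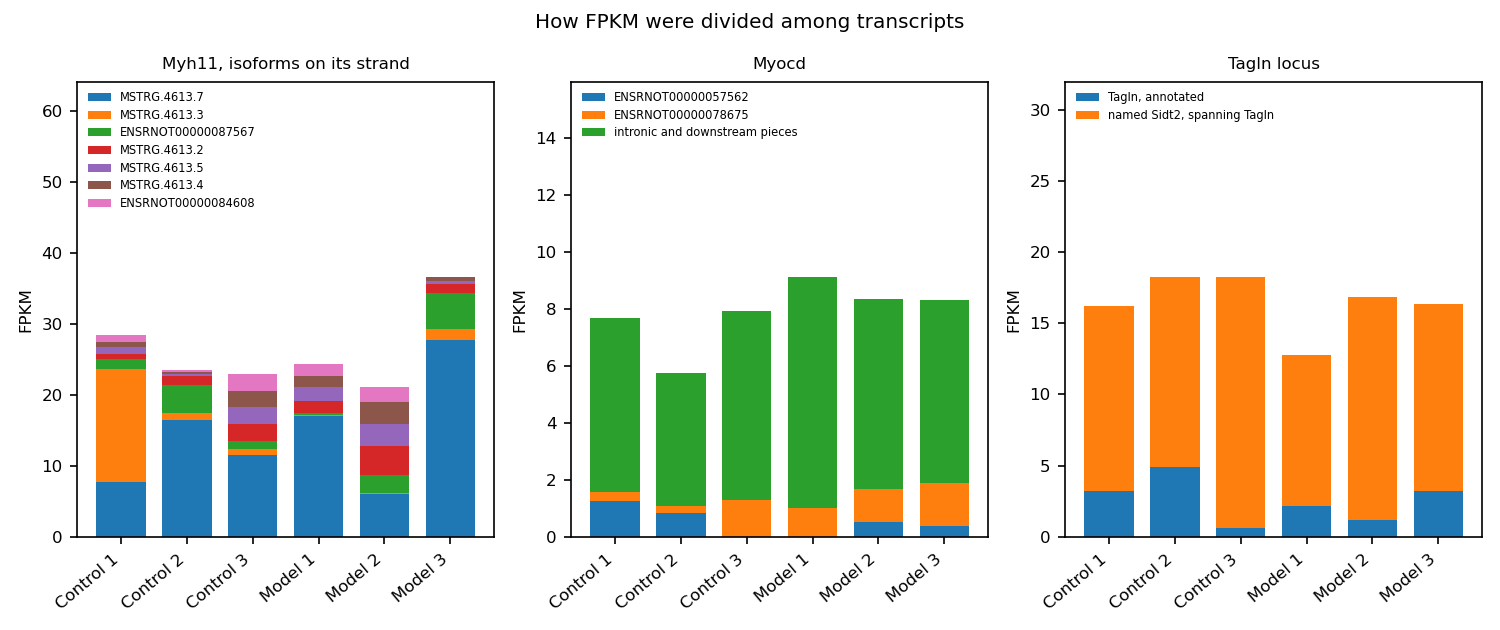
FPKM (linear axis from 0) stacked by transcript in each library for the 7 isoforms of Myh11 on its own strand, for the annotated transcripts and the intronic and downstream pieces of Myocd, and for Tagln with the transcripts named Sidt2 that span it. MSTRG.4613.3 is high in Control 1 only, and the Tagln locus sums to between 12.8 and 18.3 FPKM.

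Other genes of smooth muscle were read from lists of related genes. Of 24 further contractile and cytoskeletal genes of smooth muscle, 0 had an unadjusted p of at most 0.05, and the median log2 difference was -0.01 with 10 genes higher and 14 lower on average. Csrp1, a LIM protein that binds actin-bundling proteins, had 171 ± 33.8 FPKM in control and 198 ± 17.1 FPKM in model lungs (SD, n = 3 each). Fhl1, a LIM protein of muscle, had 144 ± 1.85 and 132 ± 1.95 FPKM, and its groups did not overlap, with a log2 difference of -0.12 (95% interval -0.29 to 0.05). Flna, the actin crosslinker filamin A, had 111 ± 7.998 and 126 ± 7.70 FPKM. None of these 3 differences passed the test.

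Among 12 transcriptional regulators of the contractile genes, 0 had an unadjusted p of at most 0.05, with a median difference of -0.02. Foxf1, a mesenchymal forkhead factor of the lung, had 41.2 ± 4.42 FPKM in control and 41.4 ± 8.32 FPKM in model lungs (SD, n = 3 each). Tead1, a partner of muscle gene activators, had 36.0 ± 2.64 and 36.0 ± 2.56 FPKM, and Mef2a, a MADS-box factor, had 31.8 ± 3.11 and 28.7 ± 4.32 FPKM. Srf, the partner of myocardin, was chosen after its values were seen and had 12.1 ± 1.69 and 12.8 ± 2.71 FPKM, a log2 difference of 0.07 (95% interval -0.33 to 0.46). The groups overlapped for all 4, but not for 2 of the other regulators on the list. Over all genes tested, 10.7% did not overlap.

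Of 12 genes of contraction signalling, 1 had an unadjusted p of at most 0.05. This was Ednra, the endothelin receptor of smooth muscle, with 47.1, 45.7 and 47.6 FPKM in Control 1 to 3 and 44.9, 31.2 and 24.1 FPKM in Model 1 to 3. Every model lung lay below every control, with a difference of -0.52 (95% interval -1.02 to -0.02, limma, unadjusted p = 0.0441, adjusted p = 0.934). Rhoa, the GTPase that raises calcium sensitivity, had 129 ± 8.87 and 131 ± 18.0 FPKM in control and model lungs (SD, n = 3 each). Ppp1cb, the catalytic subunit of myosin phosphatase, had 59.2 ± 7.57 and 48.8 ± 4.79 FPKM. The median difference of the 12 genes was -0.08.

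Of 16 paralogs and general cytoskeletal genes tested, 1 had an unadjusted p of at most 0.05, and the median difference was 0.06. It was Vim, the intermediate filament of mesenchymal cells, with 162, 139 and 134 FPKM in control and 170, 164 and 184 FPKM in model lungs, a difference of 0.25 (95% interval 0.0032 to 0.51, limma, unadjusted p = 0.0478, adjusted p = 0.934). Actb, the cytoplasmic beta-actin, had 1354 ± 102 and 1488 ± 79.95 FPKM (SD, n = 3 each), Actg1 had 103 ± 10.1 and 104 ± 14.9 FPKM, and the tropomyosin Tpm4 had 94.2 ± 11.1 and 94.8 ± 9.16 FPKM. These 3 did not pass the test between groups.

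Of 18 genes of activated fibroblasts, 12 were on average higher in the model group, with a median difference of 0.10, and 1 had an unadjusted p of at most 0.05. Col3a1, a fibrillar collagen, had 174, 178 and 154 FPKM in control and 189, 204 and 233 FPKM in model lungs, which did not overlap, with a difference of 0.30 (95% interval 0.03 to 0.58, limma, unadjusted p = 0.0365, adjusted p = 0.934). Sparc, a matrix glycoprotein, had 349 ± 96.3 and 409 ± 74.8 FPKM, Fn1, fibronectin, had 74.98 ± 13.7 and 83.0 ± 13.6 FPKM, and Postn, periostin, had 67.7 ± 10.5 and 76.6 ± 18.5 FPKM in control and model lungs (SD, n = 3 each). Of 9 pericyte genes, 1 had an unadjusted p of at most 0.05, namely Mcam, a cell adhesion molecule, with 32.7, 28.5 and 27.1 FPKM in control and 26.2, 24.7 and 24.2 FPKM in model lungs (difference -0.22, 95% interval -0.44 to -0.0069, limma, unadjusted p = 0.0448, adjusted p = 0.934). The pericyte median was 0.12, with 8 of the 9 genes on average higher in the model group and 1, Mcam, lower. Rgs5, a regulator of G-protein signalling, had 33.6 ± 5.99 and 35.1 ± 10.5 FPKM, Notch3, a receptor of mural cells, had 24.1 ± 0.287 and 26.6 ± 1.53 FPKM, and Pdgfrb, the PDGF receptor of pericytes, had 15.5 ± 0.284 and 16.9 ± 2.14 FPKM (SD, n = 3 each). None of these 3 had an unadjusted p of at most 0.05. The groups of Mcam (lower) and Notch3 (higher) did not overlap, as for 10.7% of all genes tested.

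Across the other marker lists, medians of the log2 difference were 0.28 for 8 cardiac, -0.02 for 5 skeletal muscle, 0.21 for 7 airway epithelium, -0.0019 for 4 cartilage, 0.18 for 6 alveolar epithelium, 0.02 for 4 endothelium, 0.02 for 4 mesothelium and -0.08 for 5 leukocyte genes tested. One gene of these, the natriuretic peptide gene Nppa of the cardiac list, had an unadjusted p of at most 0.05 (difference 0.16, limma, unadjusted p = 0.0258, adjusted p = 0.934) and stayed at or below 0.167 FPKM in every library. Without Model 3 the median of the cardiac list was -0.06 and that of the airway list was -0.35. The 5 genes named here for their unadjusted p, Ednra, Vim, Col3a1, Mcam and Nppa, each lost it in 5 of the 6 fits that left out 1 library.

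**Figure D5:**
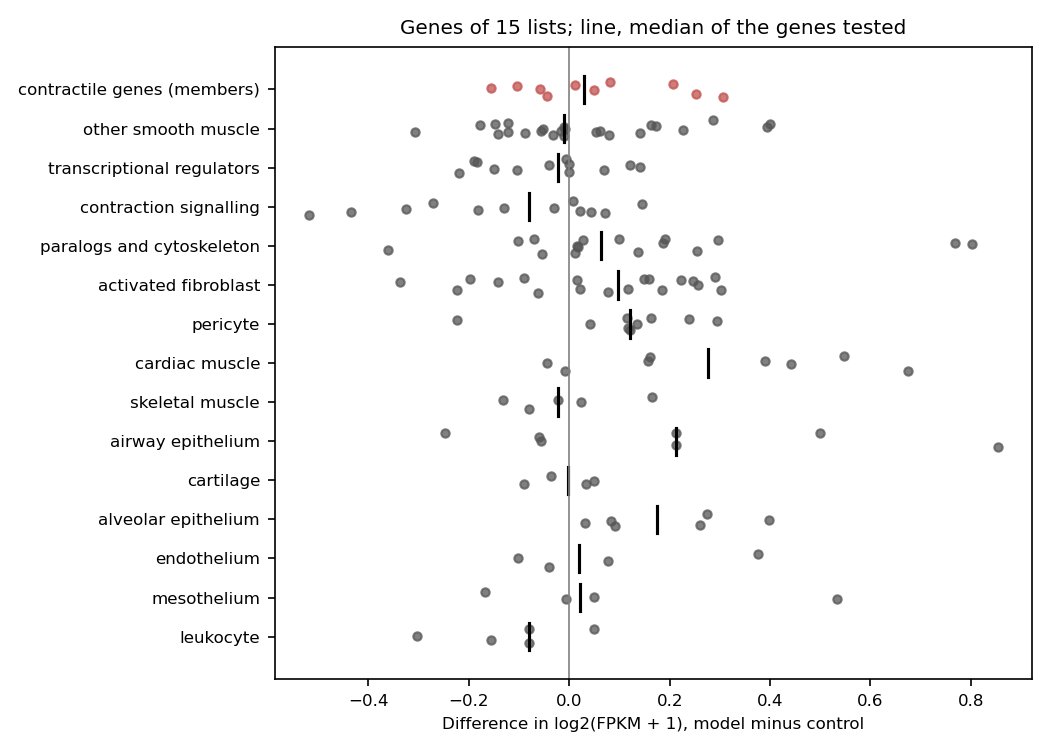
Difference between PF model and control in log2(FPKM + 1) for each gene tested of the 10 contractile genes (red) and of 14 other lists (grey), one point per gene, with the median of each list as a black line. The contractile genes lie between -0.15 and 0.31 with a median of 0.03.

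Over the 6 libraries, Myh11 followed the mean of the other 9 contractile genes most closely (Pearson r = 0.9747 on the centred log2 scale), then Acta2 (0.904), Myl9 (0.887), Lmod1 (0.861), Actg2 (0.834), Des (0.811) and Cnn1 (0.810). Tagln (0.318), Smtn (0.218) and Myocd (0.0229) did so least. These values describe 6 libraries of which Model 3 and Control 1 were high for most members. The 10 genes outside the list whose pattern was most like the mean of the members, among 13886 compared over the same 6 libraries, had r between 0.981 and 0.997. They were Snx27, AABR07051562.1, Aars, Rab42, Kat5, Zscan20, Eif5a, Clcn3, Ptgfrn and Tuba1b. These genes were picked for the highest r over 6 libraries, so r was bound to be high. A shared regulation with the contractile genes was not tested. Snx27 ran from 9.15 FPKM in Model 2 to 12.1 FPKM in Model 3, and Tuba1b, an alpha-tubulin, from 92.8 to 124 FPKM in the same libraries.

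Circular RNAs from the contractile genes had few reads, as had those of the table as a whole. Of 5216 circular RNAs in the deposited counts, 3 had one of the 10 genes as host, in libraries with 2037 to 2964 back-splice reads each. The 3 came from 3 of the 10 genes, while the whole table named 2881 hosts beside 21210 gene names with an annotated transcript. The circular RNA of 4 exons from Myocd had 0, 0 and 3 reads in Control 1 to 3 and 0, 2 and 1 reads in Model 1 to 3, equal to 3 reads in each group. One circular RNA of Myh11 had 1 read in Control 2, and a circular intronic RNA of Smtn had 1 read in Model 1. The median circular RNA of the table had 1 read over all libraries, and differences between groups were not detectable at this depth.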

How the data were processed

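RNA of one lung library per rat was analysed for 3 control and 3 PF model rats, grouped by their titles. The authors deposited FPKM per transcript, estimated with StringTie and Ballgown, and coverage per transcript, a signal not scaled for library size. They also deposited counts of back-splice reads of circular RNAs. The submitters' processing notes name HISAT2, StringTie and TopHat. The genome build is not given in the sources used here, and coordinates are those of the files.

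Gene FPKM were the plain sums over the transcripts of a gene name with at least 1 annotated transcript. Features above 0 FPKM in 3 or more of the 6 samples were compared on log2(FPKM + 1), a scale that understates the change of low genes, with limma 3.58.1 (with trend, two-sided) in R 4.3.3 and Benjamini-Hochberg adjustment over all features tested. Reads were estimated from coverage, transcript length and 150 bases per read. Counts of circular RNAs were not tested. The contractile genes and the 14 other lists, of 154 names, were chosen with earlier results of these data known.

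By rule, the text names all members, genes of the other lists with an unadjusted p of at most 0.05, up to 3 others of highest mean FPKM in 6 of the lists, transcripts with at least 5% of a member's FPKM or past that p, the 10 genes most like the members, and circular RNAs hosted by a member. One list gene that falls under this rule is not reported here. The spanning transcripts, Acta1, Actc1, Srf and the cardiac and airway genes compared between libraries were picked with their values in view. Other pseudocounts, filters, sums, scalings, tests, a block for the replicate number and the omission of each sample served as alternatives. Deviations of samples with the same replicate number correlated at 0.08, 0.03 and -0.07. In simulated data with 200 of 19203 genes changed by 2 log2 units, limma found 90.5% of these with 10 false ones at an adjusted p below 0.05. These changes were larger than any difference of a contractile gene, so the simulation does not tell how often differences of that size are found. The authors' normalized abundances of circular RNAs were not used. Python 3.11.15 with pandas 2.3.3, numpy 2.4.6 and matplotlib 3.10.9 handled tables and figures.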

Additional observations from a re-analysis of the deposited data

How the results depend on the processing

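Tagln had the fewest estimated reads of the contractile genes (31.4 to 218 per library) and the widest interval. Under 13 settings other than leaving out a sample, the 10 contractile genes stayed above an unadjusted p of 0.05 (limma or F test). Of these settings, 8 alter the values themselves, and in them 76 of 80 differences kept their sign. The exceptions were Lmod1 at -0.0537 with annotated transcripts only, Des at 0.0199 and Smtn at 0.0332 when rescaled to TPM, and Smtn at 0.0042 when rescaled outside small RNA genes. Mcam was at 0.0145 with annotated transcripts only.

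Over all genes, 293 passed the p and ratio thresholds, against 80 with a mean FPKM of at least 1, 519 with annotated transcripts only and 158 with an F test on untransformed FPKM. Higher genes made up 45.1% of these calls, 58.4% after rescaling to TPM and 32.3% with the F test. The 2 genes at an adjusted p below 0.05 became 7 with annotated transcripts only, 4 outside small RNA genes and 0 with the F test, where 789 had an unadjusted p of at most 0.05. Transcripts at an adjusted p below 0.05 numbered 36 instead of 18 with a pseudocount of 0.1, and 1066 instead of 1934 transcripts passed the thresholds with a mean FPKM of at least 1.

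With the replicate number as a block, although the numbers did not pair the samples, 0 genes and 0 transcripts reached an adjusted p below 0.05 (864 genes and 2595 transcripts had an unadjusted p of at most 0.05, limma), 311 genes passed the p and ratio thresholds, and 0 contractile transcripts instead of 1 had an unadjusted p of at most 0.05 (MSTRG.5536.1, unadjusted p = 0.0608).

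Leaving out each sample gave 302 to 396 genes and 2084 to 2498 transcripts past the thresholds, 1 to 3 genes and 0 to 16 transcripts at an adjusted p below 0.05, 0 to 1 contractile genes and 0 to 3 contractile transcripts at an unadjusted p of at most 0.05, and 0 to 2 contractile transcripts past the thresholds. Of 60 differences of contractile genes, 14 then changed sign. The differences ran from -0.0207 to 0.383 for Acta2, -0.29 to 0.28 for Actg2, -0.70 to 0.24 for Tagln, -0.11 to 0.22 for Myh11, -0.51 to 0.11 for Cnn1, -0.34 to 0.11 for Des, -0.0817 to 0.138 for Lmod1 and -0.143 to 0.0714 for Smtn, and stayed positive for Myl9 (0.05 to 0.50) and Myocd (0.13 to 0.33).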

Other observations

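In some paralogs of the contractile genes and genes of contraction signalling, 1 or 2 libraries stood apart from the rest, and these genes were picked after their values were seen. Myl12a, a light chain of non-muscle myosin, had 1.46, 76.1 and 77.1 FPKM in Control 1 to 3 and 92.4, 79.5 and 8.72 FPKM in Model 1 to 3, so that Control 1 and Model 3, the libraries with the highest contractile sums, were the lowest for Myl12a. Its near-identical paralog Myl12b had 38.2 FPKM in Control 1 and between 17.7 and 18.6 FPKM in the other 5 libraries. Tagln2, the transgelin of non-muscle cells, had 112 FPKM in Model 2 and between 22.6 and 57.6 FPKM in the other 5. The values of Myl12a and Myl12b are uncertain, since how reads shared by such genes were assigned is not given in the sources used here. None of these 3 genes passed the test between groups. Rock1, a kinase downstream of Rhoa, had 5.99 FPKM in Model 3 and between 12.3 and 16.5 FPKM in the other 5 libraries, and Rock2 had 12.2 FPKM in Model 3 and between 18.6 and 22.1 FPKM elsewhere.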
